A study of Mus musculus with 2 samples.

Results

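The 8 genes described here, Wfs1, Fibcd1, Mpped1, Lefty1, Man1a, Spink8, Gpr161 and Ndst3, are used as markers of CA1 pyramidal cells, the principal neurons of the CA1 field of the hippocampus. They were found by symbol, and all 8 were matched among the 55536 annotated genes quantified. The sequenced total RNA was that of hippocampus from B6CASTF1/J males aged 2 months, which are the first-generation offspring of C57BL/6J and CAST/EiJ parents, with 300 ng of RNA and ERCC spike-ins in each library. The 2 libraries are biological replicates 1 and 2 of 1 group, so there was no other genotype, treatment or age to set them against. Both carry the same strain-level donor label, so that they are separate animals rests on the replicate numbers alone. The expected counts assigned to genes summed to 31268484 in replicate 1 and 31143090 in replicate 2.

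CA1 pyramidal cells receive input from CA3 through the Schaffer collaterals and carry the output of the hippocampus to the subiculum and cortex. They share a glutamatergic programme with the pyramidal cells of CA2 and CA3 and are told apart from them by sets of enriched genes, which do not form one pathway. Among the genes described here, Wfs1 encodes wolframin, a membrane protein of the endoplasmic reticulum, and Fibcd1 an endocytic receptor for acetylated compounds. Gpr161 encodes an orphan receptor of the primary cilium that restrains hedgehog signalling. Lefty1 encodes a secreted antagonist of Nodal, and Spink8 belongs to the Kazal-type serine protease inhibitor family. Man1a encodes a mannosidase of the Golgi that trims N-linked glycans, Ndst3 an enzyme that deacetylates and sulfates the glucosamine of heparan sulfate, and Mpped1 a protein with a metallophosphoesterase domain.

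Annotated transcripts of several of these genes differ by short stretches inside the coding sequence, beside differences at their ends. The stretches below, on the coding strand of mm10, are shown because they change the coding sequence between transcripts of their genes that the results below turn on. Capitals mark the bases present in one transcript and missing from the other, and the lower-case bases are the coding sequence on either side.
Ndst3, 44 bases of Ndst3-206 that Ndst3-205 lacks, chr3:123556792-123556835, minus strand: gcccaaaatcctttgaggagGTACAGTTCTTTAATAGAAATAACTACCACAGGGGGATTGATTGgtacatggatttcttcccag
Spink8, 43-base exon of Spink8-202 that Spink8-201 lacks, chr9:109824509-109824551, plus strand: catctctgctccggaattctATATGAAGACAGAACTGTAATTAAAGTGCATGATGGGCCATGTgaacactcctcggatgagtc
Wfs1, 228 bases of Wfs1-201 that Wfs1-202 lacks, chr5:36968451-36968678, minus strand: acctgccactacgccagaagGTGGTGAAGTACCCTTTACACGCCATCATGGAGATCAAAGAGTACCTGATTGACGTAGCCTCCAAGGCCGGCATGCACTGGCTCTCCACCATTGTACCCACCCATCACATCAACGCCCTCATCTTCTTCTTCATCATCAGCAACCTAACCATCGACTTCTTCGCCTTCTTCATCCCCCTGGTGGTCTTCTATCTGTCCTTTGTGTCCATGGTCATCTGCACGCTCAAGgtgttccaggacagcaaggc

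The Ndst3 stretch leaves a remainder of 2 bases after division into codons, so the reading frame of Ndst3-205 shifts there. Its annotated coding sequence ends after 642 codons at a TAA stop with 4 exon junctions behind it, against 873 codons in Ndst3-206, whose TAG stop lies in the last exon. The Spink8 exon leaves a remainder of 1 base, and the annotated coding sequence is 105 codons long with the exon and 95 codons without it. The Wfs1 stretch divides evenly into codons, and the coding sequences of Wfs1-201 and Wfs1-202 are 890 and 814 codons long.

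All 8 genes were detected, meaning a level of at least 1 TPM (transcript abundance scaled for length and to a fixed sum per library) in both libraries, as were 57.7% of nuclear protein-coding genes (12697 of 22015). Their median level was 27.6 TPM, beside 14.7 TPM over the detected nuclear protein-coding genes. Levels below are from the gene quantification, and TPM is scaled to transcript length, so levels can be set beside each other between genes. In bulk tissue, fewer cells of a type and less RNA per cell cannot be told apart, and a level here is an average over every cell of the hippocampus.

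The most abundant member was Mpped1 (ENSMUSG00000041708.12, chr15:83779467-83858494, plus strand). Replicate 1 had 66.8 TPM and replicate 2 had 71.0 TPM, a mean of 68.9 ± 2.98 TPM (SD, n = 2). Expected counts of 4483 and 4860 lay behind these values, and 89.8% of detected coding genes had a lower mean level. The wolframin gene Wfs1 (ENSMUSG00000039474.13, chr5:36966104-36989205, minus strand) had 54.0 and 62.5 TPM, a mean of 58.2 ± 6.00 TPM (SD, n = 2). It was the member with the widest SD in TPM, and its lower library still lay above both libraries of the next gene.

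The endocytic receptor gene Fibcd1 (ENSMUSG00000026841.7, chr2:31813290-31846005, minus strand) had 44.1 TPM in replicate 1 against 43.0 TPM in replicate 2, a mean of 43.6 ± 0.771 TPM (SD, n = 2). The protease inhibitor family gene Spink8 (ENSMUSG00000050074.12, chr9:109812280-109826633, plus strand) had 28.9 and 29.0 TPM, a mean of 29.0 ± 0.0707 TPM (SD, n = 2). Its transcripts are short, so this level rested on expected counts of 384 and 403 only, and the deposited interval of its TPM ran from 25.9 to 33.0 in replicate 1 and from 26.1 to 32.4 in replicate 2. The close match of its libraries is therefore finer than the counts can resolve.

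The cilium receptor gene Gpr161 (ENSMUSG00000040836.15, chr1:165295789-165326745, plus strand) had 29.2 TPM in replicate 1 against 23.4 TPM in replicate 2, a mean of 26.3 ± 4.09 TPM (SD, n = 2). The Golgi mannosidase gene Man1a (ENSMUSG00000003746.16, chr10:53904785-54076609, minus strand) had 26.5 and 25.6 TPM, a mean of 26.0 ± 0.651 TPM (SD, n = 2). Both had 2258 or more expected counts in each library.

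Ndst3 and Lefty1 were the low members. The heparan sulfate enzyme gene Ndst3 (ENSMUSG00000027977.15, chr3:123526166-123690853, minus strand) had 11.0 TPM in replicate 1 against 9.75 TPM in replicate 2, a mean of 10.4 ± 0.856 TPM (SD, n = 2), with 39.2% of detected coding genes below it. The Nodal antagonist gene Lefty1 (ENSMUSG00000038793.8, chr1:180935022-180938400, plus strand) had 4.66 and 4.51 TPM, a mean of 4.58 ± 0.106 TPM (SD, n = 2), with 19.5% of detected coding genes below it. Lefty1 had only 122 and 134 expected counts, and its deposited interval spanned 3.49 to 5.86 TPM in replicate 1.

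In the order Mpped1, Wfs1, Fibcd1, Spink8, Gpr161, Man1a, Ndst3 and Lefty1, the range of the libraries of Gpr161 contained those of Spink8 and of Man1a, so these neighbours did not differ beyond their spread. The libraries of the other neighbours in the order did not overlap. The second quantification, made directly from the reads, gave higher TPM for every member and the same order except that Man1a, at 41.7 TPM, stood before Gpr161, at 40.9 TPM. Its median over members was 49.1 TPM, beside 25.2 TPM over the same detected coding genes. The largest gap between the quantifications in TPM was for Mpped1, with 124 and 144 TPM in the second.

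**Figure D1:**
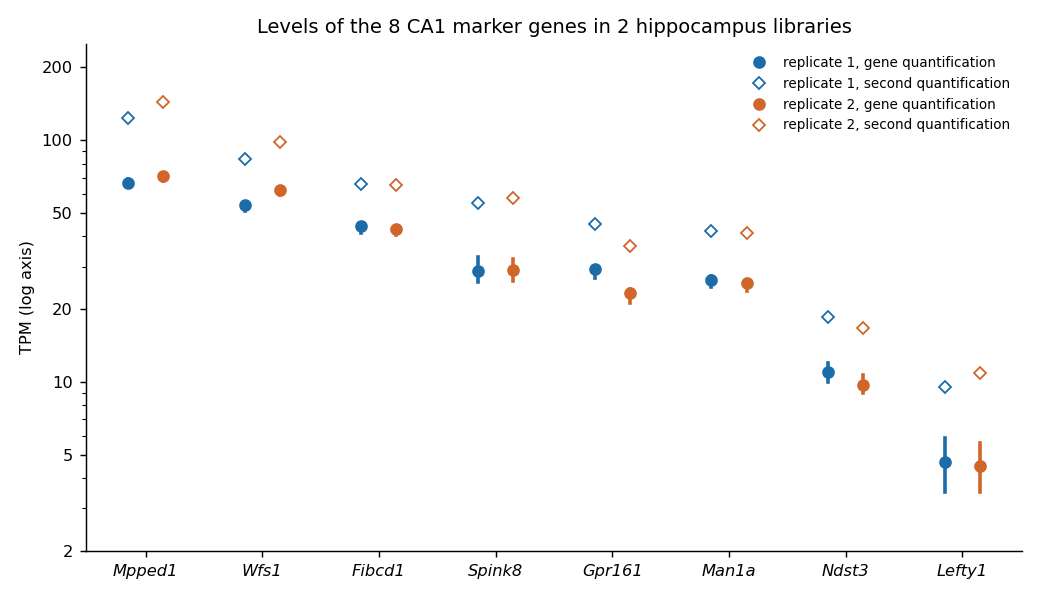
Level of each CA1 marker gene in TPM (log axis), with 1 filled circle per library from the gene quantification, its deposited interval as a bar, and open diamonds for the second quantification. Mpped1 is highest at 66.8 and 71.0 TPM and Lefty1 lowest at 4.66 and 4.51 TPM, and the diamonds lie above the circles for all 8 genes.

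The libraries were compared as the ratio of replicate 1 over replicate 2, which describes 2 libraries of 1 group and has no replicate check. None of the 8 members was 2-fold apart, beside 38 (0.273%) of the 13916 genes that reached 50 expected counts in each library. The median log2 ratio was 0.042 over members and 0.044 over all those genes, whose SD was 0.205. By TPM, 5 members were higher in replicate 1 and 3 in replicate 2, and of the 5, Fibcd1 and Lefty1 were lower in replicate 1 when expected counts were scaled with TMM.

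Gpr161 and Wfs1 lay farthest from 0, in opposite directions. The log2 ratio was 0.32 for Gpr161, with a standard error from counting alone of 0.035, which is a 1.25-fold higher level in replicate 1. It was -0.21 for Wfs1, with a standard error from counting alone of 0.030. These were the 2 of 8 members whose deposited TPM intervals did not overlap between the libraries, a state shared by 5.92% of the 13916 genes. Gpr161 had intervals of 26.8 to 30.0 and 21.2 to 24.2 TPM in replicates 1 and 2, and Wfs1 of 51.0 to 54.8 and 59.1 to 63.5 TPM.

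Both ratios were of a size that other genes also reached, in a set not matched for depth. Of the 13916 genes, 13.4% lay at least as far as Gpr161 from their common median and 15.3% at least as far as Wfs1. That set includes genes with far fewer counts and larger counting errors than Gpr161 and Wfs1. The second quantification gave log2 ratios of 0.30 for Gpr161 and -0.24 for Wfs1. There Mpped1, at -0.21, and Lefty1, at -0.19, lay nearly as far from 0 as Wfs1. In the gene quantification the remaining members had log2 ratios between -0.09, for Mpped1, and 0.17, for Ndst3. The ratios of Spink8, at 0.00, and Lefty1, at 0.05, carried counting errors of 0.103 and 0.180 and were smaller than those errors.

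**Figure D2:**
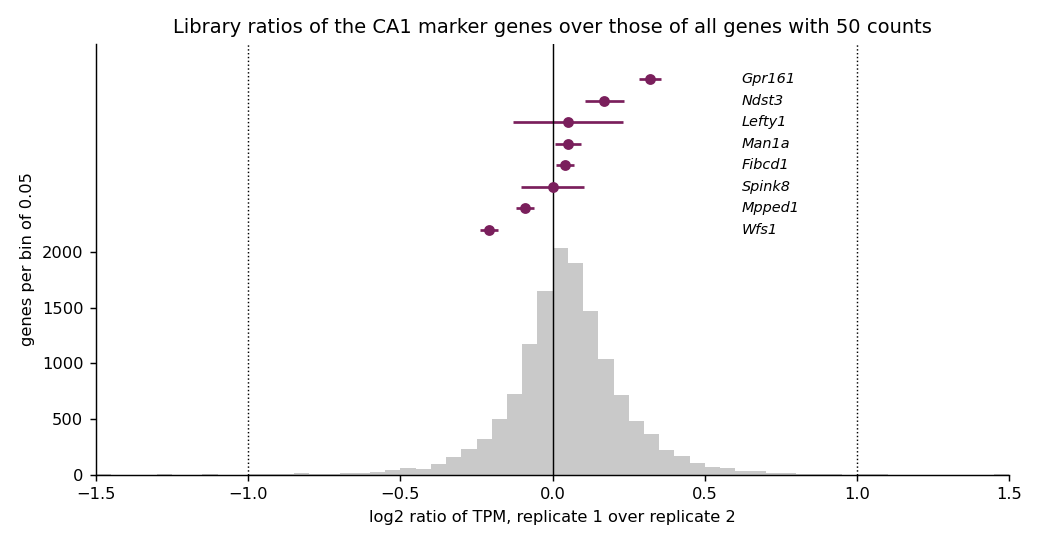
Log2 ratio of TPM, replicate 1 over replicate 2, of each CA1 marker gene (points, with bars of 1 standard error from counting) above the histogram of the 13916 genes that reached 50 expected counts in each library; dotted lines mark a 2-fold ratio. Gpr161 at 0.32 and Wfs1 at -0.21 are the outermost members and lie well inside the dotted lines.

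Transcript shares were taken as the percent of a gene's TPM in each annotated transcript, in the first transcript quantification, made from the alignment, and in the second. Fibcd1 has 1 annotated transcript and the other 7 members have several. The leading transcript differed between the quantifications for Mpped1 and Spink8, 2 of those 7 genes, beside 24.5% of 11502 detected nuclear protein-coding genes with several transcripts. That count is close to the background share, and 7 genes are too few to tell a different rate from it.

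The difference was widest for Mpped1. Its transcripts Mpped1-201 and Mpped1-203 have the same coding sequence of 326 codons and differ only in their first, noncoding exon. The first quantification gave Mpped1-201 87.7% of the gene's TPM in replicate 1 and 85.8% in replicate 2, whereas the second gave it 0.0276% and 0.00258%. Mpped1-203 had 0% and 1.52% in the first quantification and led in the second with 48.9% and 39.7%. Within each quantification both replicates gave more to the same 1 of these 2 transcripts, and the quantifications favoured different ones. The shares in the second still moved between replicates. The first exon of Mpped1-208 contains that of Mpped1-201, and Mpped1-208 had 8.56 and 8.00 TPM in the second quantification. The second quantification therefore assigned RNA to a transcript that holds the first exon of Mpped1-201. Reads on that exon itself were not counted, and Mpped1-208 shares its other exons with further transcripts.

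Summing both transcripts of the full coding sequence did not bring the quantifications together as shares. Their sum was 87.7% and 87.3% in the first and 49.0% and 39.7% in the second. In TPM the sum was 58.6 and 61.9 in the first quantification and 60.9 and 57.0 in the second. TPM was higher in the second quantification for genes in general, with medians over detected coding genes of 14.7 TPM in the gene quantification and 25.2 TPM in the second, so equal TPM is a lower relative level there. Mpped1-204, typed as a target of nonsense-mediated decay, the pathway that degrades RNA with an early stop, had 3.46 and 3.13 TPM in the first and 36.6 and 46.4 TPM in the second. It skips a 226-base exon of the full coding sequence and has a first exon of its own. The partial transcript Mpped1-207 had 0.390 and 0.410 TPM in the first quantification and 16.2 and 31.8 TPM in the second.

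The first exons of Mpped1-201 and Mpped1-203 each have a RefSeq start site at their first base. The promoter windows run from 250 bases before that base to 50 bases from it onward (RefSeq, GRCm38.p6). They are printed because the quantifications place most RNA of the full coding sequence on different ones of these starts. Capitals mark CG dinucleotides.
Mpped1-201 start, chr15:83779773-83780072, plus strand: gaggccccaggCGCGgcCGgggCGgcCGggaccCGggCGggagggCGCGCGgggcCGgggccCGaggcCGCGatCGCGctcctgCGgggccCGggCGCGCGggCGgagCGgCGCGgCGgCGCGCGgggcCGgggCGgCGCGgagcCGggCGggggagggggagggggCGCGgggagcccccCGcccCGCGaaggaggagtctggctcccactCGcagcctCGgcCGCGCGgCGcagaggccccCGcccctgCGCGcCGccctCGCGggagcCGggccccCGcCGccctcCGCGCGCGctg
Mpped1-203 start, chr15:83784579-83784878, plus strand: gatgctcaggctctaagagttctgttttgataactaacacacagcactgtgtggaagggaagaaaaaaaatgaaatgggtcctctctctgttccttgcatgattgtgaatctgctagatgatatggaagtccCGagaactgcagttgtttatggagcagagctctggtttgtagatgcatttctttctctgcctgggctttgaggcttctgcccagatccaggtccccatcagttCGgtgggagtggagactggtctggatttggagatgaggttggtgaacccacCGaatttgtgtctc

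The window at the Mpped1-201 start was 89.3% G and C with 59 CG dinucleotides, and the window at the Mpped1-203 start was 47.3% G and C with 3. Over all 32851 RefSeq promoter windows of this length, the medians were 52.7% and 7. Promoter windows were found for 6 of the 8 members, 9 windows in all. Those of Wfs1, Fibcd1 and Man1a held 70.0%, 74.3% and 72.7% G and C, while both windows of Gpr161, at 44.0% and 45.7%, and both of Ndst3, at 43.0% and 39.0%, were below the median. The Ndst3 windows lie at the first base of Ndst3-202 and 85 bases from that of Ndst3-201, which had 0 TPM in the first quantification, and no window was found at the first bases of Ndst3-205 or Ndst3-207. The letters TATAAA, searched on both strands, were in 0 of the 9 windows and in 13.6% of all windows. Across the 9 windows the share of G and C ran from 39.0% to 89.3%.

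**Figure D3:**
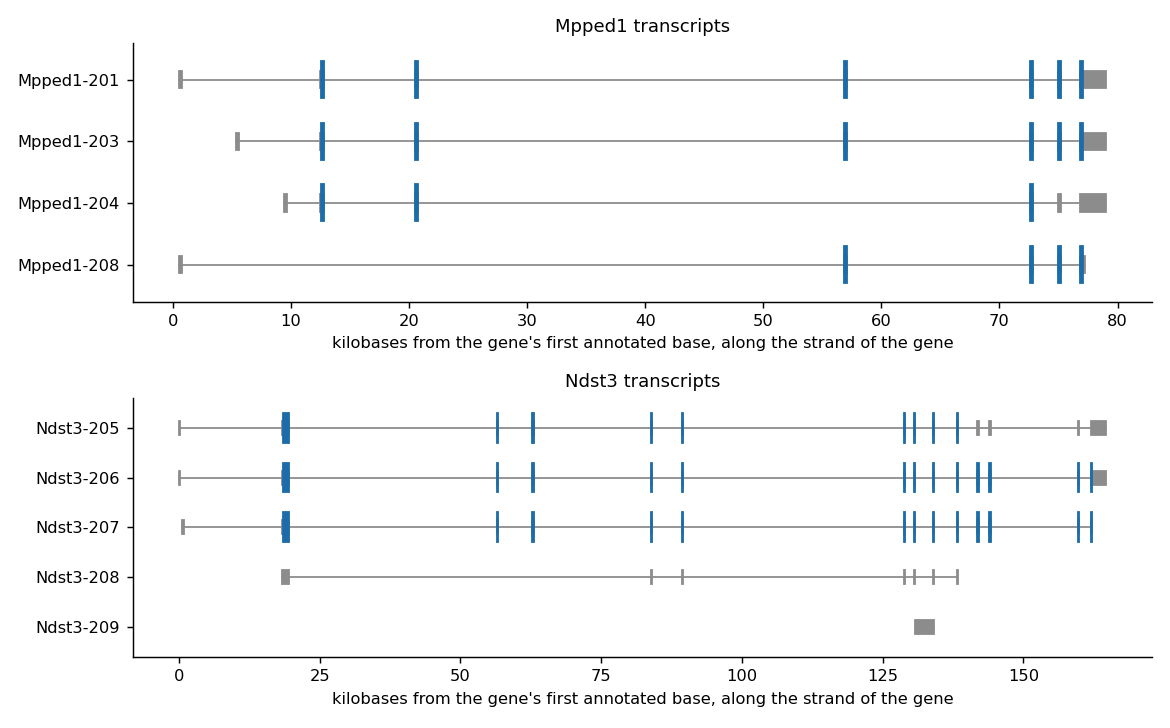
Exons of the main annotated transcripts of Mpped1 (upper panel) and Ndst3 (lower panel), in kilobases from the first annotated base of the gene along its own strand, with coding exons tall and blue, noncoding exons low and grey, and exons drawn at a minimum width. Mpped1-201 and Mpped1-203 differ in the first exon, and in Ndst3-205 the blue exons end 4 exons before those of Ndst3-206.

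Ndst3 stood apart from the other members in the kind of transcript its RNA was assigned to. Its leading transcript was Ndst3-205, the one that lacks the 44 bases printed above and is typed as a target of nonsense-mediated decay. It had 48.2% and 48.6% of the gene's TPM in the first quantification and 40.9% and 39.8% in the second. Ndst3 was the only member led by a transcript of that type, 1 of the 7 with several transcripts, beside 2.32% of the 11502 genes. It was also the only 1 of the 7 with over 50% of its TPM on transcripts not typed as protein coding, beside 10.9% of those genes.

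The whole share of Ndst3 on such transcripts was 75.6% as a mean over libraries in the first quantification, a share that 2.73% of the 11502 genes reached. In the second it was 60.6%, reached by 8.02% of the genes. The transcripts with the full coding sequence of 873 codons held 21.8% and 22.8% in the first quantification, or 2.39 and 2.22 TPM. They held 34.6% and 41.3% in the second, or 6.41 and 6.87 TPM, and in replicate 2 of the second Ndst3-207 led over Ndst3-205. The retained-intron transcripts Ndst3-208 and Ndst3-209 together held 26.2% and 26.4% in the first and 22.0% and 18.2% in the second.

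Few bases separate Ndst3-205 from the rest of the gene. Of its 5498 words of 31 bases, 2 were found in no other transcript, and Ndst3-206 had none of its own. The 44-base stretch opens with the same 5 bases as the sequence that follows it. The junction that skips it is shared with Ndst3-208, so the 2 words do not lie across that junction. The full-length Ndst3-206 had 0.240 and 0 TPM in the first quantification. Ndst3-207 carries 123 annotated bases after its stop codon, against 2643 in Ndst3-206 and 3294 in Ndst3-205, so of the transcripts with TPM above 1 that hold most of the coding exons only Ndst3-205 carries the long 3′ end. Ndst3-205 and Ndst3-206 end at almost the same base, chr3:123526166 and chr3:123526168, and the earlier stop of Ndst3-205 leaves more bases after it. The part that the long 3′ end plays in the share of Ndst3-205 was not tested.

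Wfs1 was led by the full-length Wfs1-201 in both quantifications, with different shares. It had 66.2% in replicate 1 and 68.9% in replicate 2 in the first, and 93.4% and 93.1% in the second. The shorter Wfs1-202 had 18.3 and 19.4 TPM in the first quantification and 5.51 and 6.83 TPM in the second. Only 24 of its words of 31 bases, 0.738%, were found in no other transcript. The share of Wfs1-201 differed between the libraries by 2.75 percentage points in the first quantification, less than it differed between the quantifications.

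Spink8 has 3 annotated coding transcripts, of which Spink8-203 had 0 TPM in both quantifications. Spink8-201 had 60.1% and 52.0% in the first quantification and 40.8% and 38.9% in the second. Spink8-202, with the 43-base exon printed above, had 39.9% and 48.0% in the first and 59.2% and 61.1% in the second. Its TPM was 11.5 and 13.9 in the first and 32.5 and 35.4 in the second. The leader changed with the quantification, and Spink8-201 and Spink8-202 were both above 1 TPM in every library. By expected counts in the first quantification, Spink8-201 had 210 and 188 and Spink8-202 had 174 and 215. The leader by counts therefore changed between the libraries there.

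Gpr161-201, which has a 3′ untranslated region of 5044 bases, led in both quantifications with 79.9% and 75.8% in the first and 87.5% and 83.3% in the second. The difference between the libraries lay in this transcript. It had 23.3 TPM in replicate 1 against 17.7 TPM in replicate 2, while Gpr161-202, with 96 bases after its stop codon, had 5.85 and 5.65 TPM. In the second quantification Gpr161-201 had 39.5 and 30.5 TPM, and Gpr161-202 had 5.63 and 6.13 TPM.

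Man1a-201 and Man1a-203, which share 1 coding sequence of 655 codons, together held 62.5% and 62.9% of the gene's TPM in the first quantification and 71.2% and 76.1% in the second. The split between them moved more, as Man1a-203 had 1.28% and 7.67% in the first and 18.9% and 31.7% in the second. Man1a-203 had 0 words of 31 bases of its own. Retained-intron transcripts of Man1a held 13.9% and 8.85% in the first quantification.

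Lefty1-201, with the coding sequence, had 65.7% and 77.6% in the first quantification and 50.9% and 51.2% in the second. The retained-intron transcript Lefty1-202 had the rest, which in the first quantification was 17.4 and 11.3 expected counts. A share resting on so few counts is loose, and the libraries differed by 11.9 percentage points.

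**Figure D4:**
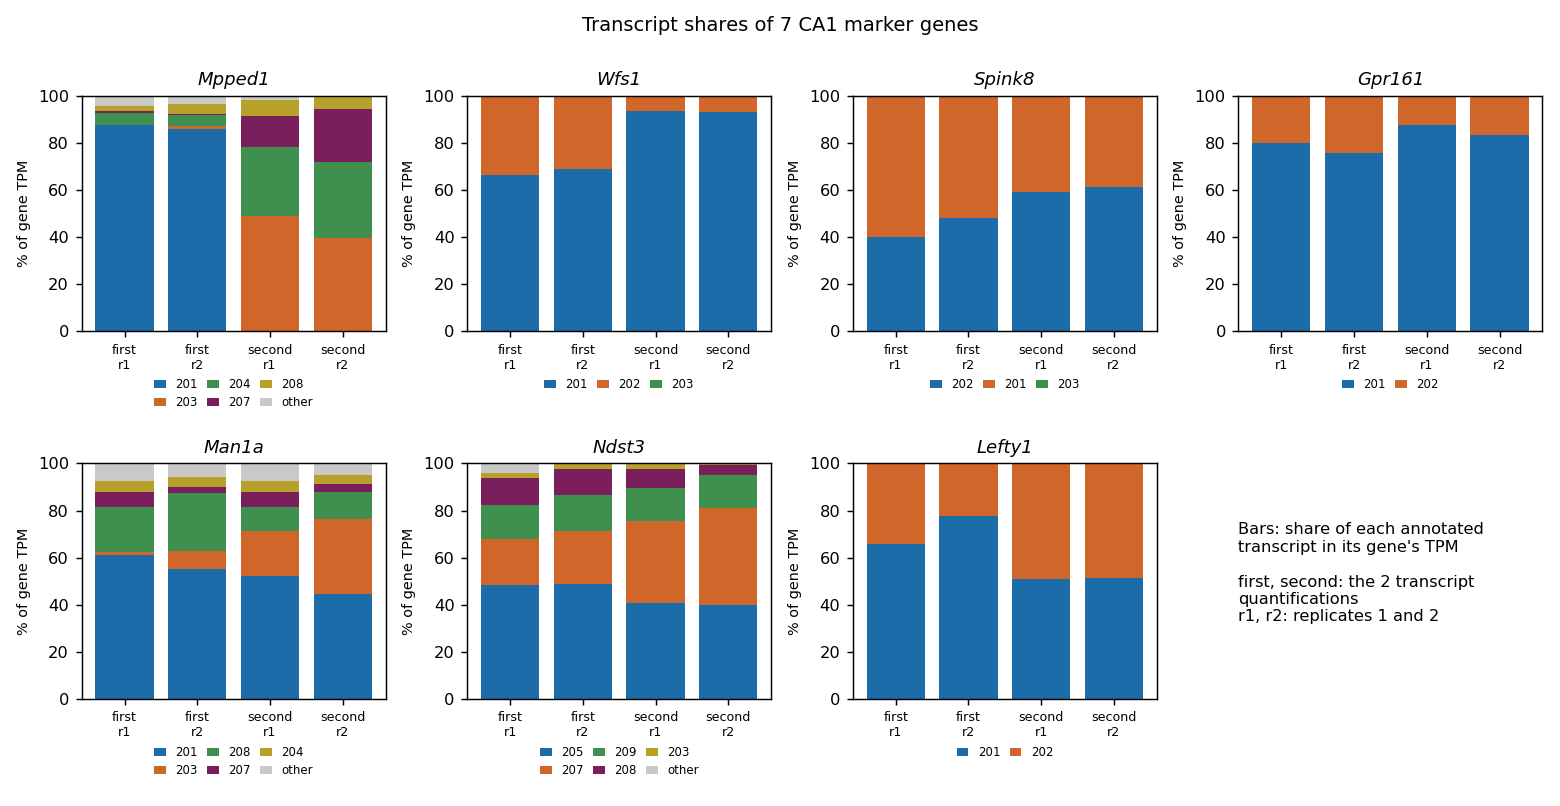
Share of each annotated transcript in its gene's TPM, in percent, for the 7 CA1 marker genes with several transcripts, as stacked bars for replicates 1 and 2 in the first and second transcript quantification. Mpped1 changes its leading transcript from one quantification to the other, and Ndst3-205 holds 48.2% and 48.6% of Ndst3 in the first.

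Sequence shared with other genes was small for 7 of the 8 members. Of the words of 31 bases in Lefty1 transcripts, 443 of 1726 (25.7%) also occurred in Lefty2, its close paralogue, so the level of Lefty1 depends on how reads common to both were divided. Lefty2 had 20.7 and 25.6 expected counts and 0.830 and 1.46 TPM. Ndst3 shared 0.605% of its words, all with Ndst4, Gpr161 shared 0.433% and Wfs1 0.394%. Fibcd1, Mpped1, Man1a and Spink8 shared none.

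Man1a and Ndst3 are the members whose span overlaps another annotated gene, and the RNA assigned to those genes was low. Gm16998, on the strand opposite to Man1a, had 0.470 and 0.380 TPM, and Gm47917, also opposite, had a count of 0 in each library, a value that allows up to 3 counts. Gm42510 lies within Ndst3 on the same strand and had 0.350 and 0.220 TPM.

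The closest relatives of the enzyme genes were detected beside them. Among the enzymes of the Ndst family, Ndst1 had 47.2 and 46.2 TPM, Ndst2 had 8.30 and 7.05 TPM and Ndst4 had 7.82 and 6.52 TPM. By the TPM of the whole gene, Ndst3 was therefore second to Ndst1. Only 2.39 and 2.22 TPM of Ndst3 lay on its full coding sequence in the first quantification, and such sums were not taken for its relatives. Of the class I alpha-mannosidase genes, Man1a2 had 46.1 and 49.3 TPM, above Man1a, while Man1b1, at 23.6 and 22.0 TPM, and Man1c1, at 9.02 and 8.71 TPM, were below it. In the second quantification Man1b1, at a mean of 46.0 TPM, was above Man1a, at 41.7 TPM. Mpped2, the paralogue of Mpped1, had 17.4 and 16.6 TPM, and Cisd2, mutated like WFS1 in human Wolfram syndrome, had 14.3 and 13.7 TPM.

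The relatives of Spink8 and Fibcd1 other than Spink10 averaged under 1 TPM. Spink2, Spink4 and Spink5, other Kazal-type inhibitor genes, averaged between 0 and 0.0450 TPM. Spink10 was 2-fold apart by TPM, with 2.78 TPM in replicate 1 against 0.970 TPM in replicate 2. Its expected counts, 111 and 80.0, were not 2-fold apart. Its mean was 1.88 TPM in the gene quantification and 14.2 TPM in the second quantification, where Lefty1 had 10.2 TPM. Among genes whose proteins share the fibrinogen-like domain of Fibcd1, Fcna, Fcnb, Fgl1 and Fgl2 averaged between 0.0200 and 0.700 TPM.

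The pathways around the members differed in how much of each was detected. Of the heparan sulfate genes, Ndst3 included, 22 of 23 were detected, with a median of 15.4 TPM and the highest means in the core protein genes Gpc1, at 62.6 TPM, and Sdc3, at 56.1 TPM. All 17 of the N-glycan processing genes were detected, with a median of 22.8 TPM, led by Man2a2 at 68.2 TPM and Man1a2 at 47.7 TPM. All 17 genes of endoplasmic reticulum stress and calcium handling were detected, with a median of 36.5 TPM, led by the calcium pump gene Atp2a2 at 252 TPM and the chaperone gene Calr at 195 TPM. Wfs1 was above the median of that list.

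For Gpr161, 18 of 20 genes of ciliary hedgehog signalling were detected, with a median of 9.07 TPM. The highest, Prkar1a at 232 TPM and Prkaca at 106 TPM, encode subunits of protein kinase A. For Lefty1, 13 of 19 genes of Nodal and activin signalling were detected, with a median of 4.61 TPM. The receptor gene Acvr1b had 34.7 and 33.9 TPM and the transducer gene Smad4 had 26.7 and 25.1 TPM. Nodal itself, named after its value was seen, had 5 and 2 expected counts, or 0.110 and 0.0400 TPM. The co-receptor genes Tdgf1 and Cfc1 averaged 0.265 and 0.115 TPM and the transcription factor gene Foxh1 averaged 0.0550 TPM, also named after their values were seen. None of the genes of these 5 pathway lists with at least 50 counts in both libraries was 2-fold apart.

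Markers of the other hippocampal fields and of other cell types were present in both libraries, so the members' levels cannot be assigned to CA1 from these data. Of 4 further CA1 genes, all were detected, led by Itpka at 112 TPM and Dcn at 18.7 TPM, with a median of 18.1 TPM. All 8 CA3 genes were detected, with Nnat (223 TPM) and Dkk3 (109 TPM) the highest and a median of 19.2 TPM. Of the CA2 genes 6 of 7 were detected, with Pcp4 (105 TPM) and Rgs14 (48.7 TPM) the highest and a median of 8.79 TPM. The dentate granule cell list had 9 of 9 detected and a median of 27.2 TPM, led by C1ql3 at 73.4 TPM and Prox1 at 40.5 TPM. The subiculum list had 4 of 4 detected and a median of 5.01 TPM, led by Fn1 at 14.9 TPM and Slc17a6 at 5.39 TPM. The median of the CA1 members, 27.6 TPM, lay next to that of the dentate list.

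Of the genes common to pyramidal cells all 8 were detected, and Camk2a (1437 TPM) and Nrgn (638 TPM) stood above the median of 103 TPM. GABAergic genes had a median of 30.9 TPM, led by Sst at 164 TPM and Gad1 at 143 TPM. Among glia, the median was 120 TPM for astrocyte genes, led by Slc1a2 at 690 TPM and Slc1a3 at 162 TPM, and 84.6 TPM for oligodendrocyte genes, led by Mbp at 433 TPM. Microglia genes had a median of 14.8 TPM, led by Csf1r at 28.8 TPM and C1qa at 20.1 TPM, and endothelial genes of 14.1 TPM, led by Ly6c1 at 24.6 TPM and Cldn5 at 19.0 TPM. Each of these lists but the first had 6 of 6 genes detected.

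Lists for tissue next to the hippocampus were also read, though bulk levels do not show which tissue the RNA came from. The meninges list had 6 of 6 genes detected and a median of 4.38 TPM, led by Ptgds at 220 TPM and Igf2 at 22.9 TPM. The choroid plexus list had 2 of 6 detected and a median of 0.400 TPM, and of its genes Ttr had 10.6 TPM in replicate 1 against 23.1 TPM in replicate 2, and Kl had 4.04 and 3.96 TPM. Ttr was 2-fold apart in the direction of replicate 2. The undetected genes of the choroid plexus list also had more TPM in replicate 2, all on fewer than 50 expected counts in each library. Of the meninges genes, 5 of 6 had more TPM in replicate 2. Their log2 ratios of TPM had a median of -0.28, and Igf2 was at -0.54. The expected counts of Igf2, 932 in replicate 1 and 1151 in replicate 2, had a narrower ratio than its TPM. Of the oligodendrocyte genes, 5 of 6 had more TPM in replicate 1, and their log2 ratios had a median of 0.15. The median over all genes compared was 0.044, so most of those genes also had more TPM in replicate 1. With TMM the median was 0.07 for the oligodendrocyte genes and -0.22 for the meninges genes. Wfs1 was higher in replicate 2 and Gpr161 in replicate 1. The part of these tissues and cells in the library ratios of Gpr161 and Wfs1 was not tested.

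**Figure D5:**
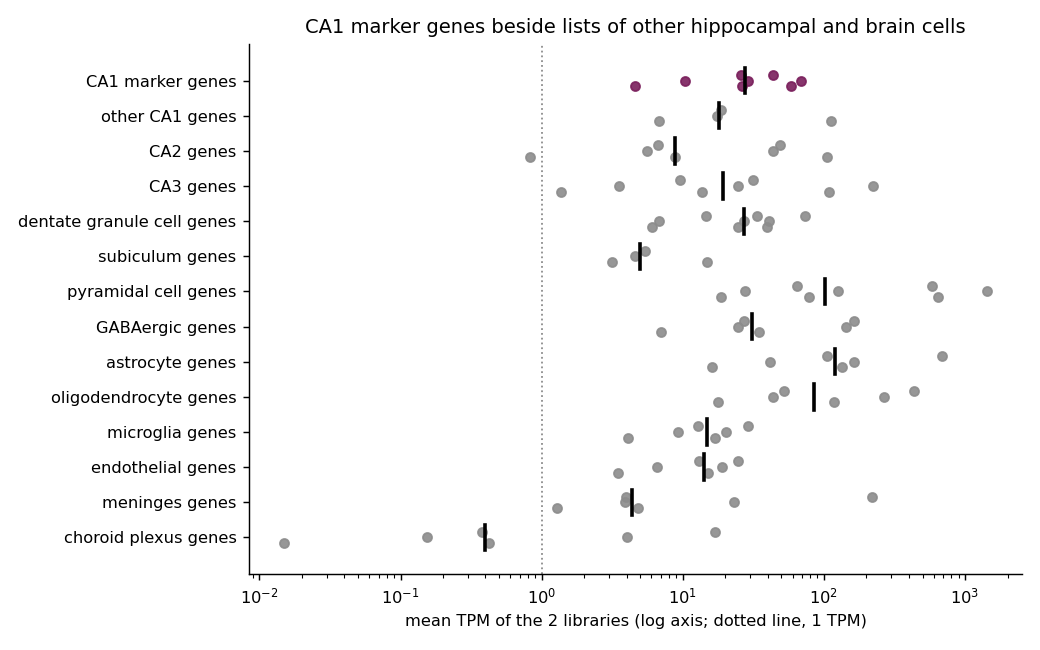
Mean TPM over the 2 libraries (log axis) of each gene in the CA1 marker list and in 13 lists of other hippocampal fields and brain cell types, with a black bar at the median of each list and a dotted line at 1 TPM. The CA1 members run from 4.58 to 68.9 TPM around a median of 27.6 TPM, near the median of the dentate granule cell list.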

How the data were processed

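Total RNA of the hippocampus was measured in 2 libraries of 1 group. The authors' deposited listings trace gene values and the first transcript quantification to a transcriptome alignment, and the second to the reads themselves, on mm10 with GENCODE M21. The sources used here give no program versions. The deposited expected count estimates, per the file headers, how many reads belong to a feature, so it can be fractional, and the deposited TPM is that count scaled for length to a fixed sum per library. The deposited isoform percent is, per the file headers, a transcript's share of its gene's TPM; shares were recomputed from TPM for both quantifications and came within 0.051 percentage points of it. The deposited intervals of TPM have no stated level and need not be centred on the deposited TPM. That of Fibcd1 in replicate 1, 41.5 to 44.0, lies below its 44.1 TPM. Reads of the CAST/EiJ haplotype were assigned to the C57BL/6J reference, and what this changes was not measured.

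The 8 members and the gene lists were chosen with earlier results of these data known. Named are all members, the 2 highest genes of every other list, list genes 2-fold apart, every family relative and genes overlapping a member, and Nodal, Tdgf1, Cfc1 and Foxh1 beyond that rule; 1 gene that the rule names is not reported here. Detection meant at least 1 TPM in both libraries. Ratios were taken over genes that reached 50 expected counts in each library, and a ratio of 2 either way was called. No second group existed, so no p-values were computed. The spread between the libraries may be technical. Standard errors and limits from counts cover counting error only. The comparisons of intervals, leading transcripts and transcript types were added with the data in view. Sequence shared between transcripts was counted in words of 31 bases on the transcript strand. The symbol Nov in the list of further CA1 genes was not matched and is not analysed here. Alternatives used rounded expected counts scaled with edgeR 4.0.16 (TMM) and DESeq2 1.42.0 (size factors) under R 4.3.3. Other steps used Python 3.11.15, pandas 2.3.3, numpy 2.4.6 and matplotlib 3.10.9. The ratio calls were run on simulated counts with changes set beyond the called ratio, which checks the code and not the ratios reported here.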

Additional observations from a re-analysis of the deposited data

How the results depend on the processing

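All 8 members were detected at 0.1 and 0.5 TPM, in the second quantification and in each library alone, and 7 at 5 TPM. None was 2-fold apart under TMM, the second quantification, a minimum of 10 counts or no minimum, and none was 1.5-fold apart. The median level of 27.6 TPM became 66.3 with TPM rescaled over nuclear protein-coding genes and 49.1 in the second quantification, and was 27.3 to 29.1 in single libraries. The median log2 ratio of 0.04 became -0.05 with TMM, -0.04 with DESeq2 size factors and -0.03 in the second quantification, while TMM moved the median of all genes compared to -0.003. Under TMM the log2 ratio of Fibcd1 became -0.01 and that of Lefty1 -0.14, both of which changed sign, and those of the other members did not. In the second quantification that of Lefty1 became -0.19, a change of sign, and that of Mpped1 moved from -0.09 to -0.21. The mean share of the leading transcript became, in the second quantification, 93.2% for Wfs1 (67.5% in the first), 0.0151% for Mpped1 (86.7%), 51.1% for Lefty1 (71.7%), 48.4% for Man1a (58.2%), 39.8% for Spink8 (56.1%), 85.4% for Gpr161 (77.9%) and 40.4% for Ndst3 (48.4%). As shares of expected counts it became 70.7% for Wfs1, 92.3% for Mpped1, 88.7% for Lefty1, 75.7% for Man1a, 50.7% for Spink8, 93.2% for Gpr161 and 63.4% for Ndst3. These shares differ since counts are not divided by length, and Fibcd1 has 1 transcript. The cause of the differences between quantifications was not tested. In single libraries the share of the leading transcript ran from 65.7% to 77.6% for Lefty1 and from 52.0% to 60.1% for Spink8, the widest ranges. Depth limits Lefty1 and Spink8, with at most 134 and 403 counts. No paired analysis was possible because there is 1 group.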
